A study of Mus musculus with 6 samples.

Results

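The interferon regulatory factor (IRF) family was examined in cultured mouse dendritic cells. Its members were taken as the rows of the deposited count table named Irf1, Irf2, Irf3, Irf4, Irf5, Irf7, Irf8 and Irf9, which gave 8 genes of 54532. Each of the 8 was expressed above the minimum count for testing, and 14174 genes were tested in all.

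The series held 6 bulk RNA-seq libraries of cells labelled as dendritic cells, 3 from the control group and 3 from cells given DB2313. The study describes DB2313 as an inhibitor of Spi1 (PU.1), a transcription factor of the ETS family that macrophages and dendritic cells depend on. The labels gave no dose, time, strain, age or number of animals, nor whether the replicates came from separate cultures, so p-values measure the spread between these libraries, which may be technical. The control columns of the table were headed BMDC and the others SPI1, each numbered 1 to 3. Every direction below reads the SPI1 columns as the DB2313 libraries. The labels named dendritic cells, while the methods of the study described macrophages from the peritoneal cavity. Another experiment of the study used monocytes given the growth factor GM-CSF, with or without DB2313.

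IRF proteins share a DNA-binding domain that reads repeats of the letters GAAA, as in the interferon-stimulated response element (ISRE). Irf3, Irf5 and Irf7 carry signals from pattern recognition receptors, Irf9 joins STAT proteins in the complex that answers type I interferon, and Irf1 and Irf2 act on the same elements, Irf1 mainly as activator and Irf2 often as its antagonist. Irf4 and Irf8 bind weakly alone and are brought to composite elements by PU.1 or by Batf proteins. In dendritic cells, Irf8 is needed for the type 1 conventional subset (cDC1) and Irf4 for functions of the type 2 subset (cDC2).

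Total counts were 16146743 to 19764677 per library, and the spread between replicates beyond counting noise (biological coefficient of variation) was 9.66%. Of the lists of cell markers, the dendritic cell list (Itgax, Flt3, Zbtb46, Ccr7, MHC class II genes and others) summed to 13274 to 13507 CPM, that is, counts relative to the TMM-scaled total of the library, in control and 11417 to 13262 CPM with DB2313, and the macrophage list to 9880 to 11262 and 8897 to 9782 CPM. Both sums were high but rested on few genes. The macrophage sum came mostly from Lyz2, at a mean of 8750.7 CPM in the control group. The largest part of the dendritic cell sum was Cd74, at a mean of 6557.4 CPM in the same group, with H2-Aa next at 1790.3 CPM. The sums thus say little about the other genes of each list, and by them alone dendritic cells and macrophages cannot be told apart. DB2313 replicates 1 and 3 lay far apart in several lists, for example at 4459.8 and 3476 CPM for the neutrophil list.

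The promoters of the family are shown first, searched for letters read by IRF, ETS or STAT proteins close to the start. Whether such matches go with a change under DB2313 was not tested. RefSeq (GRCm38.p6) gave 11 start sites for the 8 genes. In the 250 bases before each start, on both strands, the searched letters were GAAA, any pair of bases (NN) and GAAA (ISRE, found in 2.98% of 32851 promoters), GGAA, NN and GAAA (the ETS and IRF composite element, 2.30%), GAGGAAGT (a PU.1 site, 2.44%), TGANTCA (AP-1, 6.75%) and TTCNNNGAA (the STAT site GAS, 7.02%). The sequences below are those of Irf4, Irf5, Irf2 and Irf7, the 4 genes that changed with DB2313, and of Irf8, the nearest relative of Irf4 in use. They run 5′ to 3′ on the strand of the gene up to its first annotated base, and capitals mark matches. The search covered all 250 bases of each of the 11 windows, whereas bases that lie inside the annotated gene are not printed.
Irf4: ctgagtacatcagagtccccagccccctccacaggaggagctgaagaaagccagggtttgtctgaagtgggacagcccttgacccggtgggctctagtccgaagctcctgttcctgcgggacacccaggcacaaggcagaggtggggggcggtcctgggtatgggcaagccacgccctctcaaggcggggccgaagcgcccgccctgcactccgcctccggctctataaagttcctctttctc
Irf5: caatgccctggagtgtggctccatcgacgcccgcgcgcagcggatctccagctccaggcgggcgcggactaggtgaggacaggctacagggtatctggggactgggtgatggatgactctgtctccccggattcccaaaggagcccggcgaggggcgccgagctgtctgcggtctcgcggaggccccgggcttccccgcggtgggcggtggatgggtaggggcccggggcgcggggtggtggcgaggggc
Irf2: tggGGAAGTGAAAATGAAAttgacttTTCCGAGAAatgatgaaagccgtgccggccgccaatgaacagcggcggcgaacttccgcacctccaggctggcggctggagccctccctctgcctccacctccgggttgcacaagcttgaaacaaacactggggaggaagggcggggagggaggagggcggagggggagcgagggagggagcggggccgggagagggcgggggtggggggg
Irf7: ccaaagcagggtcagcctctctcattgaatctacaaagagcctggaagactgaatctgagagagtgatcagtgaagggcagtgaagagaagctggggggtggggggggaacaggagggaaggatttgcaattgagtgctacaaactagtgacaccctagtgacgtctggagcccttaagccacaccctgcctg
Irf8: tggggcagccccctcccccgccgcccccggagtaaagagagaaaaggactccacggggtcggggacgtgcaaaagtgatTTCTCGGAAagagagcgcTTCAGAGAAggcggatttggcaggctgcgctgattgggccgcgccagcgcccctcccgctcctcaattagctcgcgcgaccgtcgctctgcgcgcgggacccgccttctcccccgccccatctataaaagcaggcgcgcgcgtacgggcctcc

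The printed stretches are chr13:30748983-30749225 on the plus strand for Irf4, chr6:29526375-29526624 on the plus strand for Irf5, chr8:46739495-46739731 on the plus strand for Irf2, chr7:141266482-141266674 on the minus strand for Irf7 and chr8:120736108-120736357 on the plus strand for Irf8. Irf2 held the composite element GGAAGTGAAA, which overlaps an ISRE match GAAAATGAAA, and the GAS match TTCCGAGAA. Irf8 held the GAS matches TTCTCGGAA and TTCAGAGAA. Irf1, not printed, held the GAS match TTCCCCGAA starting 90 bases before its first start. None of the searched letters stood in the 250 bases before the listed starts of Irf3, Irf4, Irf5, Irf7 and Irf9, and both windows of Irf9 lie inside its annotated gene. A match is a description of letters, and its absence covers this window alone.

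DB2313 changed 4 of the 8 members at an adjusted p under 0.05, where 10.6% of all tested genes changed. Irf4, Irf5 and Irf2 fell (5.94% of all tested genes fell) and Irf7 rose (4.66% rose), while Irf1, Irf3, Irf8 and Irf9 did not pass. For these same 4 genes the groups were apart in every library, as for 27.4% of all tested genes. With Irf8, 5 members had an unadjusted p under 0.05, against 23.3% of all tested genes. The median log2 fold change was -0.10 over the 8 members and 8.2e-04 over all tested genes. In bulk RNA, fewer cells that express a gene and less of its RNA per cell cannot be told apart.

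**Figure D1:**
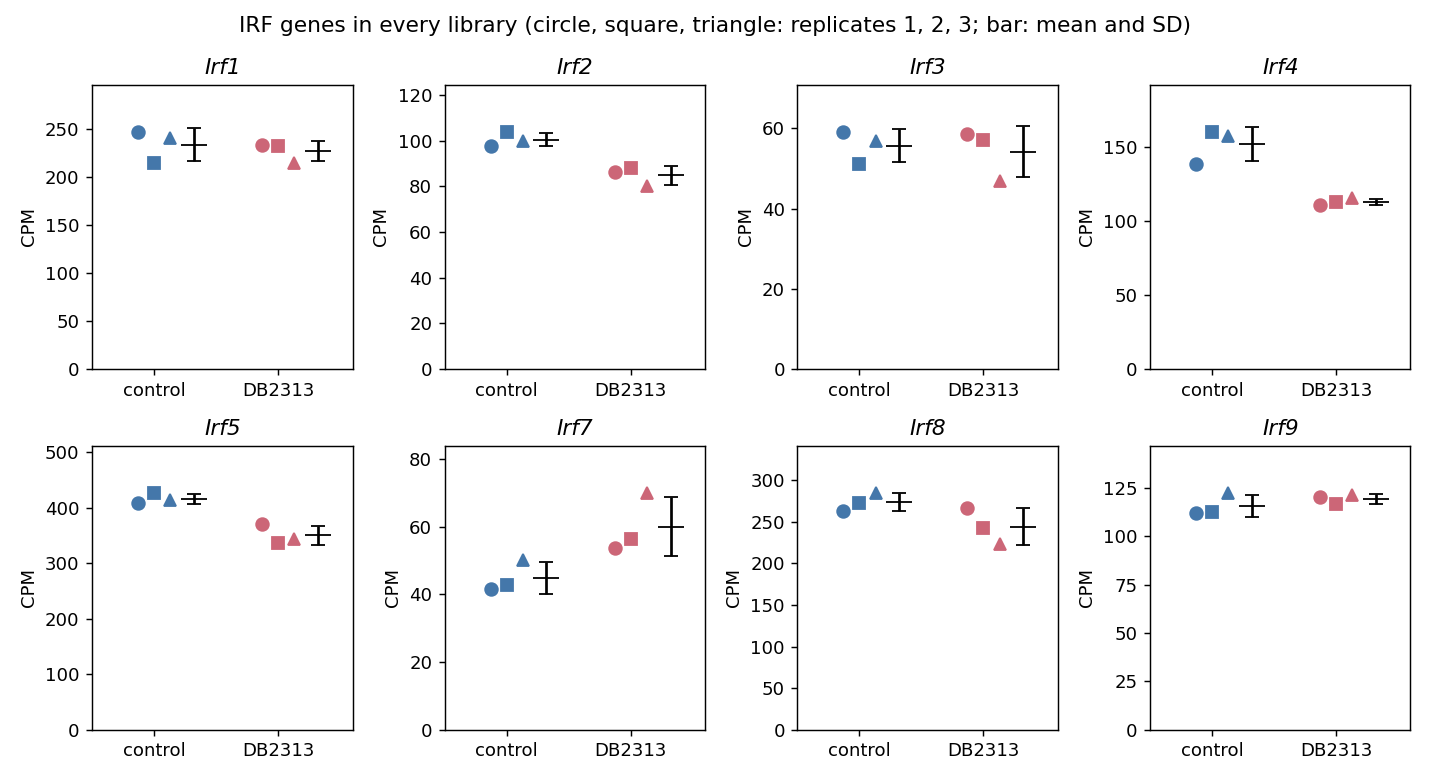
CPM (vertical axes, from 0) of the 8 IRF genes in each of the 6 libraries, with circles, squares and triangles for replicates 1, 2 and 3 and bars for the mean and SD of each group (n = 3). The groups are apart for Irf2, Irf4, Irf5 and Irf7, and they overlap for the other 4 genes.

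Irf4 (ENSMUSG00000021356, chromosome 13, 30749226 to 30766976, plus strand, GRCm38) showed the most stable change of the family. It measured 139, 160.1 and 157 CPM in control replicates 1 to 3, and 111, 113 and 115 CPM in the DB2313 replicates. Every treated library was lower than any control library and within a narrow band of 113 ± 2.19 CPM (SD, n = 3), against 152 ± 11.6 CPM in control. Irf4 thereby fell by 25.7%, a log2 fold change of -0.43 ± 0.08 (SE, 95% interval -0.59 to -0.27, adjusted p 0.0018). It passed in each of the 16 alternative analyses.

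Irf8 (ENSMUSG00000041515, chromosome 8, 120736358 to 120756694, plus strand), the cDC1 factor, measured 263, 273 and 285 CPM in control and 267, 242 and 223 CPM with DB2313. DB2313 replicate 1 lay inside the control range and the other DB2313 libraries below it. The log2 fold change was -0.16 ± 0.08 (SE, 95% interval -0.32 to -0.0020), with an adjusted p of 0.207 (0.0475 unadjusted, from edgeR). Without DB2313 replicate 1 the log2 fold change was -0.23 and the adjusted p 0.0409.

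Set against each other within a library, which removes scaling, Irf4 counts were 0.527, 0.587 and 0.552 of Irf8 counts in control and 0.416, 0.465 and 0.517 with DB2313. The groups did not overlap, and the log2 difference was -0.26. The two-sided exact permutation test gave p = 0.1, the smallest p that 3 against 3 libraries allow, so the difference between the responses of these relatives could not pass a threshold of 0.05.

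Irf5 (ENSMUSG00000029771, chromosome 6, 29526625 to 29541871, plus strand) drives inflammatory cytokine genes downstream of Toll-like receptors. It measured 409, 427 and 414 CPM in control and 370.0, 336 and 345 CPM with DB2313, so that every treated library was lower. Irf5 fell from 417 ± 9.15 to 350.2 ± 17.7 CPM (SD, n = 3 each), a log2 fold change of -0.25 ± 0.07 (SE, 95% interval -0.39 to -0.11, adjusted p 0.0243). It did not pass without control replicate 1, 2 or 3 (adjusted p of 0.073, 0.136 and 0.101) or without DB2313 replicate 2 (0.179), with log2 fold changes of -0.29 to -0.22 in all 6 such fits. The 3′ part of Irf5 overlaps Tnpo3 on the opposite strand over 411 of 2905 exonic bases (14.1%), and reads there could belong to either gene because the strand setting is not known. Tnpo3 itself had 965 to 1254 counts per library and a log2 fold change of -0.19 (adjusted p 0.185).

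Of the antagonists Irf1 and Irf2, Irf2 fell and Irf1 did not pass. Irf2 (ENSMUSG00000031627, chromosome 8, 46739732 to 46847458, plus strand) measured 97.9, 104 and 99.9 CPM in control and 86.5, 88.1 and 80.2 CPM with DB2313. The groups did not overlap, and Irf2 fell by 15.5%, with a log2 fold change of -0.24 ± 0.07 (SE, 95% interval -0.40 to -0.085). Its adjusted p of 0.0494 was just under the threshold and did not stay there in 11 of 16 alternatives. Among these, it was 0.112, 0.223 and 0.147 without control replicates 1 to 3, and 0.128 and 0.0714 without DB2313 replicates 2 and 3.

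Irf1 (ENSMUSG00000018899, chromosome 11, 53770014 to 53778374, plus strand) measured 246, 214 and 240.3 CPM in control and 233, 232 and 214 CPM with DB2313, with full overlap of the groups. Its log2 fold change was -0.04 ± 0.07 (SE, adjusted p 0.784), and the 95% interval of -0.20 to 0.11 covers changes in either direction. The ratio of Irf1 to Irf2 counts was 2.52, 2.07 and 2.40 in control and 2.70, 2.64 and 2.68 with DB2313. It was higher in every treated library, by 0.20 on the log2 scale, again at the smallest possible exact permutation p of 0.1 (two-sided). Without control replicate 2, which had the lowest ratio, the difference was 0.12.

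Irf7 (ENSMUSG00000025498, chromosome 7, 141262706 to 141266481, minus strand), the interferon-inducible amplifier of type I interferon production, was the member that rose. It measured 41.4, 42.7 and 50.2 CPM in control and 53.6, 56.4 and 69.9 CPM with DB2313. DB2313 replicate 3 stood highest, and the lowest treated library lay close to control replicate 3. The rise of 33.8% had a log2 fold change of 0.42 ± 0.11 (SE, 95% interval 0.19 to 0.65) and an adjusted p of 0.0218. The log2 fold change was 0.30 without DB2313 replicate 3 (adjusted p 0.0368), and the gene did not pass without control replicate 1 (0.37, adjusted p 0.123) or control replicate 2 (0.39, adjusted p 0.104).

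Irf3 (ENSMUSG00000003184, chromosome 7, 44997648 to 45002848, plus strand), which is made constitutively and activated by phosphorylation, measured 59.0, 51.0 and 57.0 CPM in control and 58.6, 57.1 and 46.9 CPM with DB2313. The groups overlapped, with a log2 fold change of -0.04 ± 0.10 (SE, 95% interval -0.25 to 0.17, adjusted p 0.868), and its sign turned without control replicate 1 (0.0070) and without DB2313 replicate 3 (0.056). Irf7 counts were 0.702, 0.838 and 0.882 of Irf3 counts in control and 0.914, 0.989 and 1.49 with DB2313. This ratio was thus below 1 in all libraries but DB2313 replicate 3. Its log2 difference of 0.46 had an exact two-sided permutation p of 0.1, and the 3 ratios tested had an adjusted p of 0.1 each. Without DB2313 replicate 3 the difference was 0.24.

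Irf9 (ENSMUSG00000002325, chromosome 14, 55603571 to 55610030, plus strand), the DNA-reading subunit of the interferon complex ISGF3, measured 112, 113 and 122.5 CPM in control and 120.4, 117 and 121 CPM with DB2313. The treated libraries lay inside the control range. Its log2 fold change was 0.04 ± 0.07 (SE, 95% interval -0.11 to 0.20, adjusted p 0.771). Transcripts of Irf9 share stretches of 109 to 180 bp at 95% identity or more with 12 genes besides Rnf31, whose exons it overlaps, so some of its reads could have been assigned elsewhere.

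Levels of different members were compared per length, as CPM per kilobase of the deposited gene length (RPKM). In control, Irf5 led at 143 ± 3.15 RPKM (SD, n = 3), followed by Irf1 (58.8 ± 4.30), Irf8 (38.8 ± 1.52), Irf4 (31.0 ± 2.37), Irf9 (21.5 ± 1.09), Irf3 (16.2 ± 1.21), Irf2 (13.6 ± 0.399) and Irf7 (11.9 ± 1.26). Neighbours in this order did not overlap between libraries, except Irf2 and Irf7. Irf5 alone made up 42.8 ± 1.18% of the summed level of the family in control and 40.1 ± 0.967% with DB2313.

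With DB2313 the first 5 places were held by the same genes in the same order, with Irf5 at 121 ± 6.08 RPKM. Irf4 came down to 23.0 ± 0.446 RPKM, next to Irf9 at 22.2 ± 0.457 RPKM, and their libraries still did not overlap. Irf7, last in control, reached 15.9 ± 2.32 RPKM and overlapped Irf3 (15.7 ± 1.84), while Irf2 was last at 11.5 ± 0.565 RPKM. The share of Irf4 in the summed level was 9.25 ± 0.631% in control and 7.68 ± 0.383% with DB2313, and that of Irf7 was 3.54 ± 0.312% and 5.30 ± 0.912%.

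**Figure D2:**
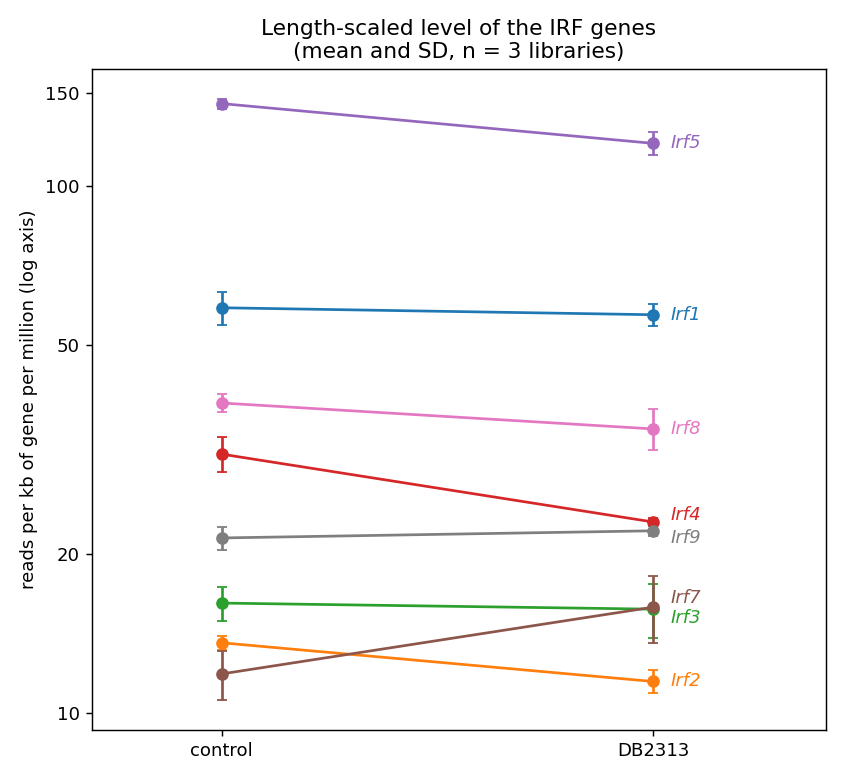
Length-scaled level (RPKM, log axis) of the 8 IRF genes in control and DB2313, as mean and SD of 3 libraries, joined by a line per gene. Irf5 stands above all others in both groups, Irf4 comes down from 31.0 to 23.0 RPKM towards Irf9, and Irf7 moves up from 11.9 to 15.9 RPKM past Irf2.

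The genes with the most similar profile over the 6 libraries were sought for each member that changed, by the root-mean-square distance of centred log2 CPM among 9721 well-expressed genes. Irf4 was nearest to Slc12a7, a potassium-chloride cotransporter, and to Ppp1r10, a regulatory subunit of protein phosphatase 1, both at a distance of 0.033. The root mean square of the centred Irf4 profile itself was 0.22. Irf5 was nearest to Ggh (0.016) and Gpr132 (0.017), and Irf2 to Map3k14, the kinase NIK (0.021), and Tmem70 (0.025). Irf7 had no neighbour as close, with Prkce at 0.069 and Zfp53 at 0.071. Since the profiles hold the group difference, likeness here includes the response to DB2313.

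The partners that bring IRF proteins to DNA were then read from the same fit. Of 16 partners and corepressors, 2 rose and 3 fell, where 4.66% and 5.94% of all tested genes did. Their median log2 fold change was -0.08. Between 0 (without control replicate 1) and 5 (without DB2313 replicate 1) of them fell when 1 library was left out. Over all genes tested in these fits, 485 of 14493 and 922 of 14558 fell. Batf3, the AP-1 factor that works with Irf8 in cDC1, fell from 106 ± 9.76 to 71.5 ± 14.6 CPM (SD, n = 3 each). This was -0.57 ± 0.12 on the log2 scale (SE, adjusted p 0.00709). It was called in all fits that left out 1 library except that without control replicate 1 (adjusted p 0.0563). Batf2, which can stand in for Batf3, rose from 14.9 ± 0.946 to 22.3 ± 2.89 CPM (0.59 ± 0.12 on the log2 scale, SE, adjusted p 0.00644) and kept its call in all 6 such fits. Batf itself was at 17.1 and 16.6 CPM (adjusted p 0.88).

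The ETS partners of Irf4 and Irf8 had lower means without passing. Spi1 had a log2 fold change of -0.15 ± 0.07 (SE, adjusted p 0.206), and Spib, its close relative, measured 76.2 ± 4.77 and 64.3 ± 2.92 CPM (SD, n = 3 each) with no overlap (-0.24 ± 0.08 on the log2 scale, SE, adjusted p 0.068). Stat2, a partner of Irf9, did not pass (0.29 ± 0.10 on the log2 scale, SE, adjusted p 0.0808), and its groups did not overlap. The corepressor Irf2bp2 fell by 0.32 ± 0.08 on the log2 scale (SE, adjusted p 0.0135) and the AP-1 gene Junb by 0.30 ± 0.08 (0.0278). Neither passed without control replicate 1 or 3 or DB2313 replicate 2 (adjusted p up to 0.0993 for Irf2bp2 and 0.147 for Junb).

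**Figure D3:**
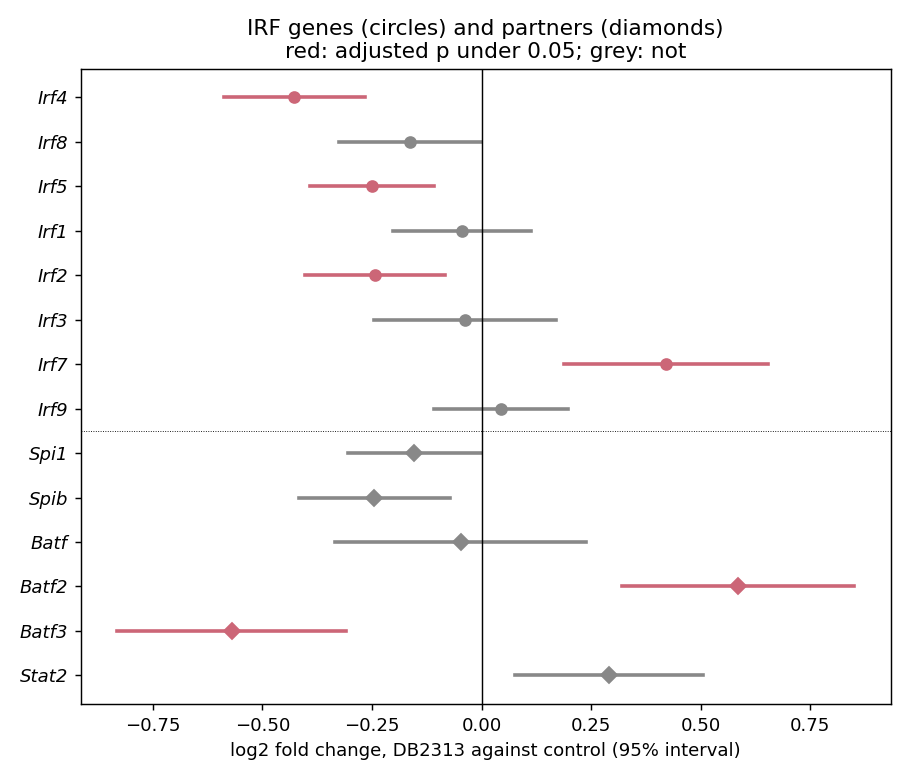
Log2 fold change (horizontal axis, DB2313 against control) with its 95% interval for the 8 IRF genes (circles) and 6 partners (diamonds), red where the adjusted p was under 0.05. Irf4 and Batf3 lie furthest to the left in their groups, at -0.43 and -0.57, and Irf7 and Batf2 furthest to the right, at 0.42 and 0.59.

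Genes upstream of the family sense pathogens and pass the signal to IRF proteins. Of 29 sensors, adaptors and kinases, 1 rose and 1 fell, where 4.66% and 5.94% of all tested genes did, with a median log2 fold change of -0.02. Mavs, the mitochondrial adaptor of the RNA sensors that activate Irf3 and Irf7, rose by 0.35 ± 0.08 (log2 fold change, SE, adjusted p 0.0102), and Irak2, a kinase of the Myd88 pathway, fell by 0.38 ± 0.09 (0.0168). Mavs did not pass without control replicate 2 or DB2313 replicate 2 (adjusted p up to 0.08), nor Irak2 without control replicate 1 or DB2313 replicate 2 (up to 0.112). Without DB2313 replicate 3, 6 genes of this list fell, where 1311 of the 14527 genes tested in that fit did. In the main fit, 842 of all 14174 tested genes fell. The IRF kinases Tbk1 (-0.02, adjusted p 0.916) and Ikbke (-0.02, adjusted p 0.94) did not pass.

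Transcripts of interferons themselves were scarce. Ifng had 7 to 26 counts per library (1.19 and 0.738 CPM, adjusted p 0.442). Ifna2, Ifna4, Ifnl2 and Ifnl3 had no count in any library, and Ifnb1 and Ifna1 had 0 to 3 counts, all of them in control libraries. Of the 15 tested genes among 21 interferons, receptors and signalling genes, 1 rose and 2 fell, with a median log2 fold change of -0.15. Over all tested genes, 4.66% rose and 5.94% fell. Ifngr1, a chain of the interferon-gamma receptor, rose from 206 to 268 CPM (log2 fold change 0.38 ± 0.07, SE, adjusted p 0.00214), and Ifnlr1, the receptor chain for lambda interferons, fell by 0.80 ± 0.15 on the log2 scale (0.00268). Both kept their call in all 6 fits that left out 1 library. The kinase gene Jak2 fell by 0.26 ± 0.07 (0.0272), but not without any 1 of the control libraries or DB2313 replicate 2 (adjusted p up to 0.194). Without DB2313 replicate 3, 5 genes of the list fell, where 1311 of the 14527 genes tested in that fit did.

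Downstream, the list of 20 interferon-stimulated genes that ISGF3 and Irf7 act on through ISREs moved upward. 10 genes rose and 1 fell, where 4.66% and 5.94% of all tested genes did. The median log2 fold change was 0.39 against 8.2e-04 over all tested genes. Oasl1 rose by 1.22 ± 0.11, Ifit3 by 1.18 ± 0.13 and Ifit1 by 1.03 ± 0.13 (log2 fold change, SE), with adjusted p of 4.73e-06, 4.88e-05 and 1.27e-04, in each of the 6 fits that left out 1 library too. Ifit3 and Ifit1 encode antiviral proteins. Ifi44 was the gene that fell (-0.89 ± 0.24, adjusted p 0.029), on 50 to 115 counts, and it passed in 2 of the 6 fits. Mx1 (-0.15, adjusted p 0.283), Usp18 (-0.29, adjusted p 0.0548) and Bst2 (0.09, adjusted p 0.565), chosen after their values were seen, did not pass.

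The summed level of this list was 924, 893 and 928 CPM in control and 1039.6, 1085 and 1261 CPM with DB2313. DB2313 replicate 3 was highest, as it was for Irf7, and no control library reached the treated ones. From 7 genes (without control replicate 2) to 12 (without DB2313 replicate 1) rose when 1 library was left out. Over all genes tested in these fits, 360 of 14537 and 789 of 14558 rose. The number of list genes that fell was 0 without any 1 of the control libraries or DB2313 replicate 2, and 3 without DB2313 replicate 3. Over all tested genes, 411 to 485 fell in the former fits and 1311 in the latter.

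The list of 20 interferon-gamma response genes that Irf1 acts on was mixed, with 2 genes higher and 3 lower. For comparison, 4.66% of all tested genes were higher and 5.94% lower. The median log2 fold change of the list was 0.09. Irgm1 (0.62 ± 0.08, SE, adjusted p 1.19e-04) and Igtp (0.36 ± 0.08, 0.00901), both GTPases of pathogen defence, rose. The cytokine subunit gene Il12b (-1.02 ± 0.12, 4.88e-05) and the GTPase genes Gbp5 (-0.39 ± 0.08, 0.00408) and Gbp2 (-0.32 ± 0.07, 0.00781) fell. Irgm1, Il12b and Gbp5 passed in all 6 fits without 1 library. Igtp did not pass without control replicate 3 or DB2313 replicate 2 (adjusted p up to 0.0526), nor Gbp2 without control replicate 2 or DB2313 replicate 2 (up to 0.0732). Without DB2313 replicate 1, 6 genes of this list fell, where 922 of the 14558 genes tested in that fit did.

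Among 13 genes with PU.1 and IRF composite elements, 3 fell and 1 rose, where 5.94% and 4.66% of all tested genes did. The median log2 fold change of these 13 genes was -0.08. Cybb, the catalytic subunit of the phagocyte oxidase, fell from 987 to 711 CPM (-0.47 ± 0.09, adjusted p 0.00282), the protease inhibitor gene Cst3 from 2525 to 1863 CPM (-0.44 ± 0.08, 0.00342) and the cytokine gene Il1b from 35.8 to 22.3 CPM (-0.68 ± 0.13, 0.0031). The 3 genes passed in all 6 fits that left out 1 library. Fcgr1, a high-affinity IgG receptor, rose by 0.26 ± 0.08 (0.0477) and passed in 1 of them. Without DB2313 replicate 1 the median turned to 0.029, with 2 genes higher and 3 lower. Of the 14558 genes tested in that fit, 789 were higher and 922 lower. Without DB2313 replicate 3, 5 genes of the list fell, where 1311 of 14527 tested genes did. Of 8 tested inflammatory genes that Irf5 acts on, Il12b and Il1b, which the lists share, fell and the chemokine gene Ccl4 rose (0.62 ± 0.18, adjusted p 0.0367). The groups of Ccl4 overlapped, and it passed in 2 of the 6 fits. The median of that list was -0.21.

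**Figure D4:**
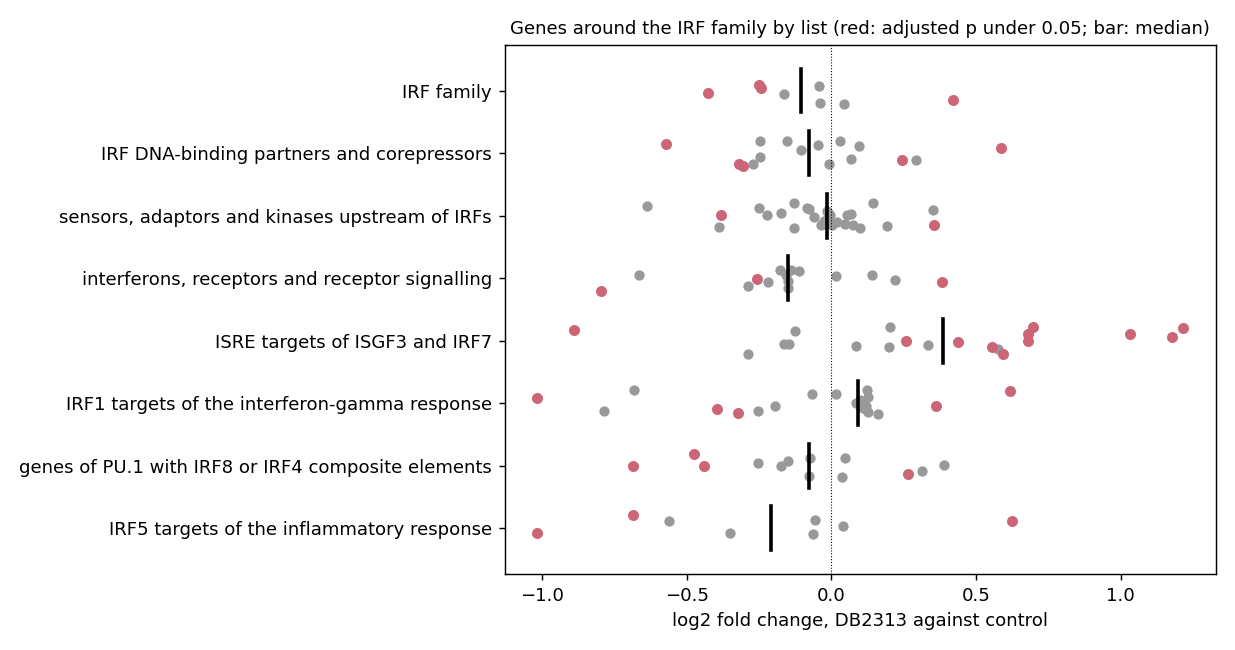
Log2 fold change (horizontal axis, DB2313 against control) of each tested gene of the IRF family and of 7 surrounding lists, red where the adjusted p was under 0.05, with a bar at the median of each list. The interferon-stimulated list lies furthest to the right with a median of 0.39, whereas the IRF family itself has a median of -0.10.

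Markers of the subsets in which Irf4 and Irf8 act were read beside them. For every marker list here and below, the shares over all tested genes were 4.66% higher and 5.94% lower in the main fit. The cDC1 list summed to 285 to 297 CPM in control and 214 to 244 CPM with DB2313, mostly from Wdfy4 and Batf3. Its defining genes Xcr1 (14 to 21 counts), Cadm1 (4 to 17) and Clec9a were close to 0, and of 7 tested genes Clec9a rose from 0.769 to 3.36 CPM (log2 fold change 2.12 ± 0.37, SE, adjusted p 0.0017) and Batf3 fell. The cDC2 list summed to 1262 to 1337 and 1248 to 1288 CPM, with 2 genes higher and 3 lower of 7. The lectin genes Clec10a (1.53 ± 0.09, SE, adjusted p 1.23e-07) and Mgl2 (0.92 ± 0.09, 1.37e-05) rose in all 6 fits that left out 1 library, opposite to Irf4. Tmem176a, Sirpa and Itgam each fell by 0.25 on the log2 scale (adjusted p 0.0479, 0.019 and 0.0441), and passed in 1, 2 and 3 of the 6 fits.

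Other cells that use these factors were also checked. Irf8 and Irf7 are abundant in plasmacytoid dendritic cells, but the list of that cell type summed to 44.0 to 50.8 CPM in control and 42.3 to 57.4 CPM with DB2313, with Siglech at 0 to 8 counts and Klk1 at 0 in all libraries. Of its 4 tested genes Bcl11a rose (1.27 ± 0.24, SE, adjusted p 0.00264). Irf4 is abundant in plasma cells and activated T cells. The list of B and plasma cells summed to 34.3 to 39.5 and 40.7 to 46.8 CPM, mostly from Ighm, and neither of its 2 tested genes passed. The T cell list summed to 166 to 199 and 168 to 249.7 CPM, and none of its 8 genes passed in edgeR. Without DB2313 replicate 3, 3 of them were higher, where 1097 of the 14527 genes tested in that fit were.

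The neutrophil list summed to 3290.2 to 3684 CPM in control and 3476 to 4459.8 CPM with DB2313, and 2 of its 8 genes rose, Elane (0.69 ± 0.11, SE, adjusted p 5.94e-04) and Ly6g (0.56 ± 0.11, 0.00473). The list of mast cells and basophils summed to 2519 to 2719.8 and 2568 to 3078 CPM, and Fcer1a (0.34 ± 0.09, 0.0244) and Hdc (0.28 ± 0.08, 0.0293) rose, in 1 and 3 of the 6 fits without 1 library. Of the dendritic cell list, Itgax fell (-0.58 ± 0.08, 3.22e-04), and of the macrophage list Fcgr1 rose and 4 genes fell, among them Cd14 (-0.88 ± 0.08, 6.39e-06) and Mrc1 (-0.71 ± 0.14, 0.00325). Without DB2313 replicate 3, 5 neutrophil genes and 3 mast cell and basophil genes rose, and 6 macrophage, 3 dendritic and 3 cDC1 genes fell. Calls rose across the table in that fit, with 1097 of 14527 tested genes higher and 1311 lower. Without DB2313 replicate 1, 4 dendritic genes fell, where 922 of 14558 tested genes did. The part of these cells in the changes of the IRF genes was not tested.

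The calls on the family were finally compared across settings. Irf4 had an adjusted p under 0.05 in 16 of 16 alternatives, Irf7 in 14, Irf5 in 11 and Irf2 in 5. Irf1, Irf3 and Irf9 passed in none, and Irf8 in 1.

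**Figure D5:**
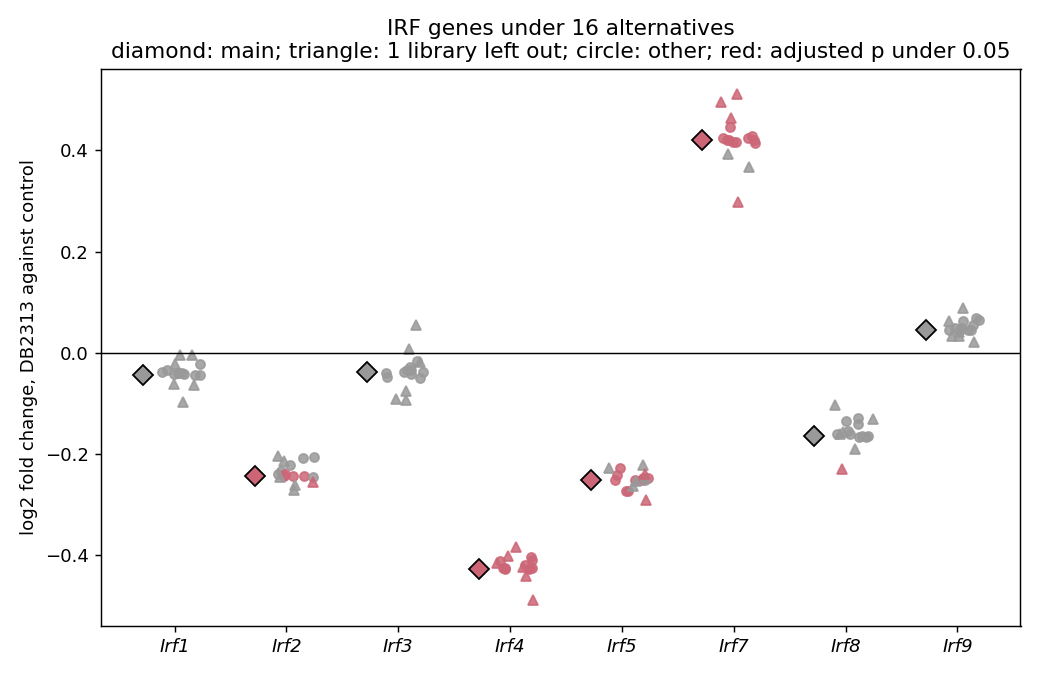
Log2 fold change (vertical axis, DB2313 against control) of the 8 IRF genes in the main analysis (diamonds) and in 16 alternatives (triangles with 1 library left out, circles for other settings), red where the adjusted p was under 0.05. The values of Irf4 stay between -0.49 and -0.38 and are red throughout, and those of Irf7 spread from 0.30 to 0.51.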

How the data were processed

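Bulk RNA-seq of 6 libraries was used. The values deposited by the authors are whole-number read counts for each gene, not normalised, together with the length of the gene in bp. The submitters' processing notes name CASAVA 1.8, HISAT2 2.0.5 and featureCounts 1.5.0-p3, whereas the methods of the study name LifeScope. Genome build, strand setting and treatment of multi-mapped reads are not given in the sources used here. All 8 members had the GENCODE M21 (GRCm38) start and end. Columns were matched to samples by name and number, as set out in the results.

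Counts were filtered with filterByExpr, TMM-scaled and tested with the quasi-likelihood test of edgeR 4.0.16 (R 4.3.3, group as single term), and p-values were adjusted by Benjamini-Hochberg over 14174 genes. Unless another fit or test is named, adjusted p, SE and 95% intervals of genes come from this fit. CPM used TMM-scaled library sizes. Within-library ratios were compared by exact permutation. All members were named. From each other list the text names up to 3 called genes with the largest rise and fall, plus fixed partners, and other genes were chosen after their values were seen. Some genes of these lists are not reported here by name. Members and lists were chosen with earlier results of these data known, from general knowledge. Alternatives were other scalings, filters and tests (limma-voom of limma 3.58.1, and DESeq2, the tool of the study, here in version 1.42.0), a gene-length offset (lowess, span 0.3), a replicate block and the omission of each library. On simulated data, 76.0% of 192 genes changed by 2-fold were recovered. Copies were searched with blastn 2.17.0 (95% identity, 100 bp). Reads carry no molecular identifiers, so counting precision is overstated by totals of 16146743 or more.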

Additional observations from a re-analysis of the deposited data

How the results depend on the processing

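Irf4 kept its direction and its call in all 16 alternatives, with log2 fold changes of -0.49 to -0.38. Irf2 lost its call with DESeq2 size factors (-0.24, adjusted p 0.0543), library totals (-0.22), no filter (-0.23) and the gene-length offset (-0.21). When each library was left out in turn, log2 fold changes ranged from -0.27 to -0.20 for Irf2, -0.29 to -0.22 for Irf5, 0.30 to 0.51 for Irf7, -0.23 to -0.10 for Irf8 and -0.094 to 0.056 for Irf3, which turned sign. In these fits 1 to 5 members were called, the median of the family was -0.16 to -0.054, 328 to 1097 genes were higher and 411 to 1311 lower, and 0 to 3 interferon-stimulated genes fell. Such fits have fewer samples. The counts were 1097 and 1311 without DB2313 replicate 3 and 789 and 922 without DB2313 replicate 1, against 661 and 842 in the main fit. They were below the main fit when any other library was left out. The mismatch of counts between replicates (chi-square per degree of freedom) was 17.7 for DB2313 replicates 1 and 3. It was 7.43 and 8.60 for the other DB2313 pairs and 4.77 to 5.28 between control libraries. The cause was not tested. Irf1 and Irf9 stayed uncalled with the same sign throughout.

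Same-numbered libraries did not deviate together (correlations of 0.0035, -0.024 and -0.12 after subtracting each group's mean). The labels do not say whether they share a culture or an animal, so pairing is not known. With the replicate number as a block, 2 members (Irf4 and Irf7) were called, and Irf2 (-0.24, adjusted p 0.115) and Irf5 (-0.25, adjusted p 0.093) were not. In that fit, 502 of 14174 tested genes were higher and 629 lower, fewer than in the main fit. With block and length offset Irf2 was at -0.21. For the ratios, the sign-flip test on same-numbered differences gave the exact p of 0.25, the smallest 3 pairs allow. The 8 members had 674 or more counts in every library.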
